A study of Mus musculus with 6 samples.

Results

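The haemoglobin and erythroid genes described here are the rows Hba-a1, Hba-a2, Hbb-b1, Hbb-b2, Alas2 and Slc4a1 of a mouse tumour expression table. All 6 symbols were found among its 23940 gene rows. The table holds poly(A) RNA-seq of CD45-negative cells sorted from YUMM1.7 melanomas grown in C57BL/6 mice. In the on-BRAFi group, 3 residual tumours were taken while the host received a BRAF inhibitor, and in the pre-treatment group 3 tumours had no inhibitor. YUMM1.7 is a mouse melanoma line driven by an activating Braf mutation, so every tumour in both groups descends from the same cultured line. The labels count the tumours within each group but do not say whether each came from its own mouse, so the error given is the spread among these libraries. The drug, its dose, the treatment time and the age of the mice are not named by the labels used here. CD45, encoded by Ptprc, is carried by leukocytes and not by mature red cells, so selection on CD45 alone does not remove red cells. Other steps of the sort are not described here, and the labels used here do not say whether red cells were lysed.

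Adult haemoglobin is a tetramer of alpha and beta globin chains, each of which holds a haem group that binds oxygen. Alas2 encodes the erythroid form of the enzyme that begins haem synthesis, and Slc4a1 encodes band 3, the chloride and bicarbonate exchanger that anchors the membrane of the red cell to its skeleton. Reticulocytes, the youngest red cells in blood, have lost the nucleus but still contain globin mRNA. A solid tumour contains blood and vessels, so its cell suspensions can contain red cells. In bulk RNA of this kind, fewer cells of a type and less RNA per cell cannot be told apart.

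Mouse alpha globin is encoded by a pair of neighbouring genes on chromosome 11, Hba-a1 and Hba-a2, and adult beta globin by a pair on chromosome 7. Hbb-b1 and Hbb-b2 are the names of the adult beta genes of one mouse haplotype, and Hbb-bs and Hbb-bt those of the haplotype that C57BL/6 carries. The table had a row for Hbb-bs, which is no member of the set but is used here to read the beta genes. Hbb-bt was among the globin genes looked for, but no row of that name was found. The transcript models behind the Hbb-b1 and Hbb-b2 rows are not stated. The copies are shown because they decide what a value for 1 copy can mean. In GENCODE M21 (GRCm38), the coding sequences of Hba-a1 and Hba-a2 are 429 bases each and differ at 1 base, the substitution C381T, counted from the A of the start codon. Those of Hbb-bs and Hbb-bt are 444 bases each and also differ at 1 base, C417T. The 60 bases around each difference are given below, with the differing base in capitals.
Hba-a1: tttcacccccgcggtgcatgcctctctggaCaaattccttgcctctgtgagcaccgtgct
Hba-a2: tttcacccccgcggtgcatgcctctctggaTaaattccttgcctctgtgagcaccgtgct
Hbb-bs: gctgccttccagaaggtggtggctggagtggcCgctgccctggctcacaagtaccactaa
Hbb-bt: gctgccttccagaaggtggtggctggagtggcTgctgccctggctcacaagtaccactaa
The series text gives a read length of 50 bases. Of the 380 windows of that length in the Hba-a1 coding sequence, 331 (87.1%) occur unchanged in Hba-a2, and of the 395 windows in Hbb-bs, 367 (92.9%) occur in Hbb-bt. A coding read of either pair could therefore seldom be given to 1 copy, and each copy's own value is uncertain. Untranslated sequence was not compared.

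Alpha globin RNA was at high levels under the Hba-a2 symbol and near 0 under Hba-a1 in every library. Hba-a2 had 813, 663 and 84.9 FPKM in on-BRAFi tumours 1, 2 and 3, against 176, 90.5 and 71.1 FPKM in pre-treatment tumours 1, 2 and 3. FPKM counts sequenced fragments per unit of transcript length and of library size. On-BRAFi tumours 1 and 2 lay above every pre-treatment tumour, while on-BRAFi tumour 3 lay inside the pre-treatment range, so the groups overlapped. The mean of Hba-a2 was 521 ± 385 FPKM on BRAFi and 113 ± 55.9 FPKM before treatment (SD, n = 3 each). Hba-a1 had 0.0065, 0.0083 and 0.0050 FPKM on BRAFi and 0.0083, 0.0034 and 0.0039 FPKM before treatment. It made up between 0.00080% and 0.0059% of the summed alpha FPKM, whereas its coding sequence is 99.77% identical to that of Hba-a2.

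Beta globin RNA was spread over 3 symbols. Hbb-b2 had 191, 183 and 17.0 FPKM on BRAFi, against 34.1, 19.0 and 24.7 FPKM before treatment. As for Hba-a2, on-BRAFi tumours 1 and 2 were above all pre-treatment tumours, and on-BRAFi tumour 3 was below all of them. Hbb-b1 had 104, 1012 and 0.323 FPKM on BRAFi, against 0.0185, 0.0109 and 25.0 FPKM before treatment. Its values ran from under 1 FPKM to the highest of any member within the on-BRAFi group, and the groups overlapped, since pre-treatment tumour 3 was above on-BRAFi tumour 3. Hbb-bs had 968, 0.155 and 144 FPKM on BRAFi, against 171, 117 and 109 FPKM before treatment. In on-BRAFi tumour 2, where Hbb-b1 was highest, Hbb-bs was near 0, and in the other 5 libraries Hbb-bs was above Hbb-b1.

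The Hbb-b1 and Hbb-bs rows were far more even as a sum than apart. Their sum was 1073, 1012 and 144 FPKM on BRAFi and 171, 117 and 134 FPKM before treatment. Hbb-b1 made up 9.74%, 99.98% and 0.224% of that sum on BRAFi, and 0.011%, 0.0093% and 18.6% before treatment. The sum divided by Hbb-b2 was 5.60, 5.52 and 8.52 on BRAFi and 5.0, 6.19 and 5.44 before treatment. That ratio lay between 5.0 and 6.19 in all libraries except on-BRAFi tumour 3, while the division of the sum between its rows changed from library to library in both groups. How reads were assigned between the copies is not stated in the sources used here, and its part in these values was not tested.

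**Figure D1:**
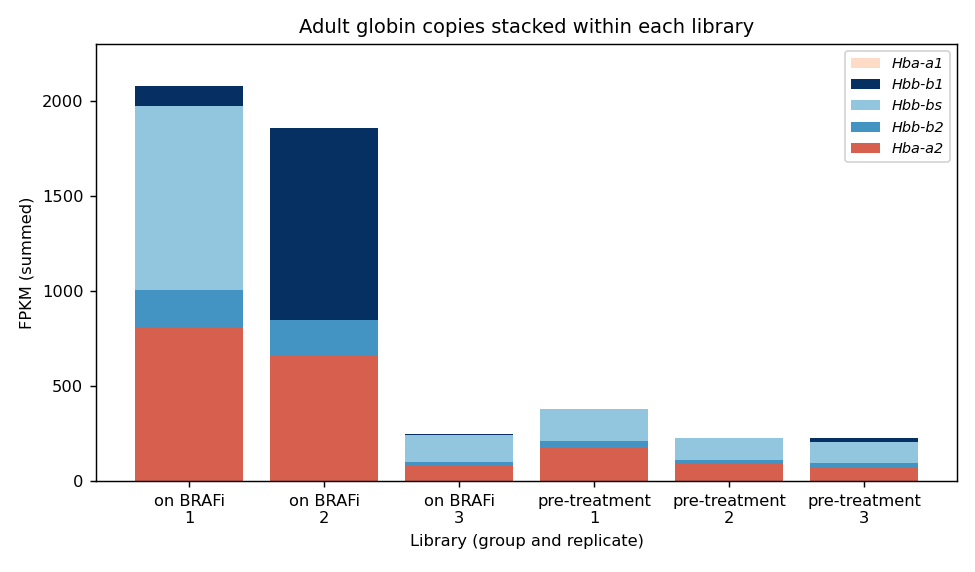
Stacked bars of the FPKM of Hba-a2, Hbb-b2, Hbb-bs, Hbb-b1 and Hba-a1 in each library, with on-BRAFi tumours 1 to 3 left of pre-treatment tumours 1 to 3. On-BRAFi tumours 1 and 2 reach 2078 and 1859 FPKM, on-BRAFi tumour 3 reaches 246 FPKM, and pre-treatment tumours lie between 227 and 381 FPKM; Hbb-b1 takes the place of Hbb-bs in on-BRAFi tumour 2.

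Summed over all 5 adult globin rows, on-BRAFi tumours had 2078, 1859 and 246 FPKM and pre-treatment tumours 381, 227 and 230 FPKM. The mean sum was 1394 ± 1000 FPKM on BRAFi and 279 ± 87.9 FPKM before treatment (SD, n = 3 each), a ratio of 4.99. On-BRAFi tumours 1 and 2 were each above every pre-treatment tumour, and on-BRAFi tumour 3 was between pre-treatment tumours 1 and 3. Without on-BRAFi tumour 3 the ratio of the means was 7.05. The sum of the 4 globin members without Hbb-bs gave a ratio of 6.97, which was 4.12 without on-BRAFi tumour 2, the library in which Hbb-b1 was highest. Adult globin made up 0.469%, 0.335% and 0.0594% of all FPKM on BRAFi, and 0.0413%, 0.0370% and 0.0410% before treatment. As a share of all FPKM, on-BRAFi tumour 3 was thus above every pre-treatment tumour and the groups no longer overlapped. These shares also follow the totals, which were 414834 to 554684 FPKM on BRAFi and 562041 to 921297 FPKM before treatment. With every library rescaled to the same total, the median log2 fold change of all tested genes was 0.54 in place of -0.0063. How many other genes stop overlapping under that scaling was not counted. No test was made on the globin sums.

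The balance of the chains overlapped between the groups and ranged most widely before treatment. Summed beta over summed alpha FPKM was 1.55, 1.80 and 1.90 on BRAFi and 1.16, 1.51 and 2.24 before treatment. The mean ratio was 1.75 ± 0.18 on BRAFi and 1.64 ± 0.55 before treatment (SD, n = 3 each), and the on-BRAFi values all lay inside the pre-treatment range.

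Alas2, whose product commits glycine and succinyl-CoA to haem in erythroid cells, followed the globins. Its level was 258, 200.6 and 20.4 FPKM on BRAFi, against 38.6, 20.5 and 27.6 FPKM before treatment. On-BRAFi tumours 1 and 2 were above every pre-treatment tumour and on-BRAFi tumour 3 was just below the lowest of them. The mean was 160 ± 124 FPKM on BRAFi and 28.9 ± 9.09 FPKM before treatment (SD, n = 3 each). All adult globin FPKM divided by Alas2 FPKM was 8.05, 9.26 and 12.1 on BRAFi and 9.88, 11.1 and 8.35 before treatment. This ratio ran from 8.05 to 12.1 while the globin sum ran from 227 to 2078 FPKM. Alas1, which encodes the form of the same enzyme made in all tissues, had 9.23, 10.2 and 6.82 FPKM on BRAFi and 8.79, 4.72 and 7.28 FPKM before treatment. Alas2 over Alas1 was accordingly 28.0, 19.6 and 2.99 on BRAFi and 4.39, 4.34 and 3.78 before treatment.

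Slc4a1, the band 3 gene, had the lowest mean of the members apart from Hba-a1. It had 3.37, 1.21 and 0.182 FPKM on BRAFi, against 0.835, 0.281 and 0.384 FPKM before treatment. The order of the libraries was again on-BRAFi tumours 1 and 2 at the top and on-BRAFi tumour 3 at the bottom. Alas2 over Slc4a1 was 76.5, 166 and 112 on BRAFi and 46.2, 73.0 and 71.7 before treatment. On this scale per length, Slc4a1 RNA was thus between 46.2 and 166 times less abundant than Alas2 RNA in every library.

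**Figure D2:**
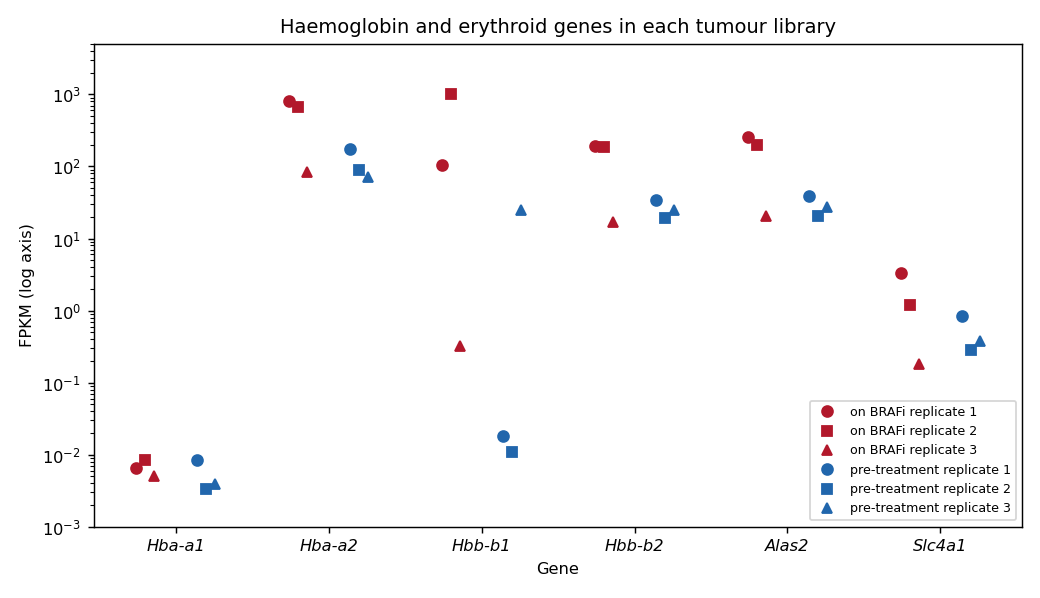
FPKM on a log axis of the 6 haemoglobin and erythroid genes in each library, on BRAFi in red to the left of pre-treatment in blue for each gene; circles, squares and triangles are tumours 1, 2 and 3. For Hba-a2, Hbb-b2, Alas2 and Slc4a1 the red circle and square stand above all blue points and the red triangle among or below them, Hbb-b1 runs from 0.0109 to 1012 FPKM, and Hba-a1 stays under 0.01 FPKM.

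Over all 6 libraries, no member differed between the groups beyond the spread among tumours. The comparison sets residual tumours, sampled on the inhibitor, against untreated ones. It was made with limma on log2(FPKM + 0.1) over the 12075 genes whose mean was 1 FPKM or more, and a gene is called where its Benjamini-Hochberg adjusted p is under 0.05. Hba-a1 was under that limit, and Slc4a1 passed it only through the on-BRAFi tumours. None of the 5 tested members was called, whereas the same limma fit called 19.1% of all tested genes, 8.76% as higher and 10.3% as lower. Before adjustment, 0 of the 5 had a limma p under 0.05, and no other tool was run. On deposited FPKM, none of the 5 had groups that did not overlap, against 20.9% of tested genes with all on-BRAFi tumours above all pre-treatment tumours and 19.5% with all below.

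The fitted changes, on BRAFi over pre-treatment, were positive for all 5 tested members with intervals that included 0. Alas2 had a log2 fold change of 1.86 ± 0.92 (SE), a 3.64-fold difference, with a 95% interval from -0.32 to 4.04 and an adjusted p of 0.202 by limma. Hba-a2 had 1.78 ± 0.86, a 3.43-fold difference, with an interval from -0.26 to 3.81 and an adjusted p of 0.193 by limma. For Hbb-b2 the values were 1.74 ± 0.91, 3.33-fold, -0.42 to 3.89, and an adjusted p of 0.225 by limma. Slc4a1 had the smallest of these fitted changes, 0.96 ± 1.05 with an interval from -1.53 to 3.46 and an adjusted p of 0.550. Hbb-b1 had the largest and the least certain, 5.68 ± 3.22 with an interval from -1.95 to 13.32 and an adjusted p of 0.261, and Hbb-bs, the row it traded levels with, had -1.98 ± 2.74 with an adjusted p of 0.640. In a limma fit without the limit on low values, Hba-a1 had a log2 fold change of 0.019 ± 0.21 and an adjusted p of 0.968.

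Library totals moved these values without leading to a call. With every library rescaled to the same total, the limma log2 fold change was 2.32 for Hba-a2 (adjusted p = 0.0585), 2.41 for Alas2 (adjusted p = 0.0718) and 2.28 for Hbb-b2 (adjusted p = 0.0796). Under that scaling the median log2 fold change of all tested genes was 0.54.

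The outcome of the test turned on on-BRAFi tumour 3. With that library left out, Alas2 had a log2 fold change of 3.02 ± 0.31 and an adjusted p of 0.00570, Hba-a2 of 2.82 ± 0.41 with an adjusted p of 0.0129, and Hbb-b2 of 2.89 ± 0.28 with an adjusted p of 0.00524, all by limma. These 3 members were then called higher and Hbb-b1 (8.88 ± 2.56, adjusted p = 0.0752) and Slc4a1 (1.94 ± 0.78, adjusted p = 0.159) were not. The same fit called 13.3% of all tested genes, and 5.85% as higher. No label gives a reason to leave that library out. It held the lowest on-BRAFi value of every tested member, so calls made without it are no separate evidence. No other library, when left out, led to a call for any member.

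**Figure D3:**
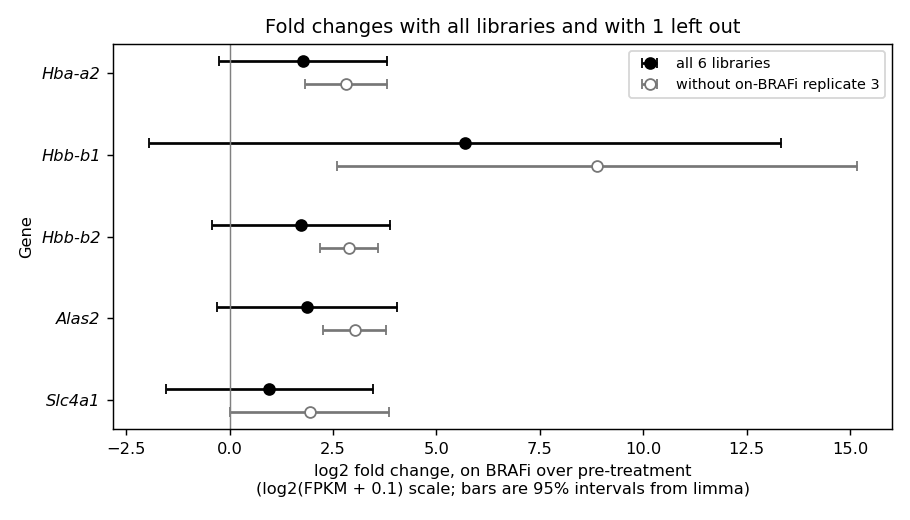
Log2 fold change of the 5 tested members, on BRAFi over pre-treatment, with 95% limma intervals; filled points use all 6 libraries and open points leave out on-BRAFi tumour 3. With all libraries every interval crosses 0, while without that tumour Hba-a2, Hbb-b2 and Alas2 lie at 2.82, 2.89 and 3.02 with narrower intervals.

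Hba-a2 and Alas2 shared on-BRAFi tumours 1 and 2 as their highest libraries, and so did Hbb-b1 and Hbb-bs as a sum. The 150 bases before the start of Hba-a2, Alas2 and Hbb-bs are therefore printed, from RefSeq on GRCm38.p6. The table of promoters held 3 of the 6 members (Hba-a1, Hba-a2 and Alas2), and Hbb-bs and Hbb-bt. Capitals mark every match, on either strand, to TATAA, to CCAAT, to CACCC (the core bound by Klf1 and related factors), and to AGATAA or TGATAA (the sequence bound by Gata1). Hba-a2 lies at chr11:32296342-32296491 on the plus strand, Alas2 at chrX:150547267-150547416 on the plus strand, and Hbb-bs at chr7:103827929-103828078 on the minus strand.
Hba-a2: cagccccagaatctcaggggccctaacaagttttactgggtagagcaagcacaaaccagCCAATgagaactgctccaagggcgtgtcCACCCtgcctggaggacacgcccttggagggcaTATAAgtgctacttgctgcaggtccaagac
Alas2: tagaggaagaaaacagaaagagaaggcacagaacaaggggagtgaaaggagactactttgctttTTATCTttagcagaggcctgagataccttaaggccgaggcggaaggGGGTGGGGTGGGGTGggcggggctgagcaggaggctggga
Hbb-bs: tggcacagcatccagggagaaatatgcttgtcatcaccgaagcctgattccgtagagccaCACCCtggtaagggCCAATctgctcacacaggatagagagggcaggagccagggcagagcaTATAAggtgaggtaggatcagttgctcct
Hba-a2 and Hbb-bs each held 1 TATAA, 1 CCAAT and 1 CACCC. The TATAA match began at -30 in Hba-a2 and at -29 in Hbb-bs, counted back from the start. Alas2 held neither TATAA nor CCAAT, but had 3 adjoining CACCC matches on the opposite strand between -40 and -26, and 1 match to AGATAA on the opposite strand from -86 to -81. No printed match overlaps a match to another motif. Of 32851 windows of the same length in the RefSeq table, 14.2% held TATAA, 24.5% CCAAT, 37.4% CACCC, and 9.65% AGATAA or TGATAA. The windows of Hba-a1 and Hba-a2, offset by 3 bases, had no difference in 147 compared bases. A match describes letters in a window and is not evidence of binding.

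Other genes of the red cell were read from 5 lists, of which 43 genes were tested and limma called 1 higher and 5 lower on BRAFi. A pair of comparison lists, globins outside red cells and haem breakdown and transport, added 10 tested genes, of which 2 were called higher and 0 lower. Of these 2, Cygb passed the limit of 1 FPKM only through the on-BRAFi tumours. The same fit called 19.1% of all tested genes. These lists were put together with results of these data known.

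The haem synthesis list, the enzymes and mitochondrial carriers that turn glycine into haem, had 15 of 15 genes tested, of which 0 were higher and 2 lower. Its median log2 fold change was 0.14, beside -0.0063 over all tested genes. Tmem14c, an inner-membrane protein that passes porphyrin precursors to the matrix, fell to 36.7, 37.7 and 32.5 FPKM on BRAFi, against 81.9, 56.8 and 70.5 FPKM before treatment (log2 fold change -0.96 ± 0.19, adjusted p = 0.0151 by limma), a call lost without on-BRAFi tumour 1 or 3 and after rescaling to the same total. Glrx5, which serves iron-sulphur cluster assembly, had 4.43, 2.72 and 3.45 FPKM on BRAFi and 17.8, 7.74 and 6.53 FPKM before treatment (-1.46 ± 0.41, adjusted p = 0.0499 by limma). That call was lost when any of 5 libraries was left out and after rescaling to the same total. It was also lost with a pseudocount of 1, with no filter on low values and in limma without trend. Fech, the enzyme that inserts iron into protoporphyrin, had 52.3, 43.3 and 26.6 FPKM on BRAFi and 30.1, 21.6 and 26.8 FPKM before treatment, with an adjusted p of 0.188. Slc25a39 and Urod, also among the most abundant of the list, had adjusted p-values of 0.560 and 0.492 by limma. Both called genes thus moved opposite to the fitted changes of Alas2.

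Among genes of the red cell membrane and skeleton, 8 of the 21 in the table were tested, 1 was called higher and 1 lower, with a median log2 fold change of 0.32. Tmod1, tropomodulin, which caps actin filaments of the skeleton, rose to 5.63, 9.34 and 5.45 FPKM on BRAFi, against 1.35, 1.57 and 1.92 FPKM before treatment (1.98 ± 0.31, adjusted p = 0.00678 by limma). Aqp1, a water channel of red cells that endothelium also makes, fell to 122, 143 and 168 FPKM on BRAFi, against 299, 326 and 286 FPKM before treatment (-1.08 ± 0.18, adjusted p = 0.00828), a call lost after rescaling to the same total. Unlike the members, both genes had all 3 on-BRAFi tumours on the same side of all pre-treatment tumours. Epb4.1, the gene of skeletal protein 4.1, had 47.4, 32.8 and 13.0 FPKM on BRAFi and 12.9, 7.20 and 7.23 FPKM before treatment, and did not pass the test (adjusted p = 0.0629). Mpp1 and Stom, with 20.6 to 46.4 and 8.21 to 16.3 FPKM over all libraries, had adjusted p-values of 0.962 and 0.424 by limma.

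The transcription factors most specific to red cell formation were at or near 0. Gata1 and Gfi1b were listed at 0 in all 6 libraries, and Klf1 had at most 0.0783 FPKM. Of 12 such genes 2 were tested, Ldb1 and Lmo2, which other cells also express, and neither was called (adjusted p = 0.688 and 0.511 by limma). Ldb1 had 2.40, 1.87 and 5.54 FPKM on BRAFi and 13.6, 6.60 and 0.933 FPKM before treatment, and Lmo2 had 2.72, 0.202 and 1.49 FPKM on BRAFi and 1.23, 0.225 and 0.212 FPKM before treatment. Of the globins that adult red cells make little of, Hbb-bh2 and Hbb-y were listed at 0 throughout, and Hbb-bh1, Hba-x, Hbq1a and Hbq1b were above 0 in 1 library each, with at most 1.08 FPKM. Cygb, cytoglobin, a globin of fibroblasts and related cells rather than red cells, rose to 5.47, 3.61 and 4.0 FPKM on BRAFi, against 0.516, 1.10 and 0.639 FPKM before treatment (2.43 ± 0.40, adjusted p = 0.00812 by limma). Its pre-treatment mean was 0.752 FPKM, so it passed the limit of 1 FPKM only through the on-BRAFi tumours. The other globins outside red cells (Mb, Ngb and Adgb) were below 1 FPKM in every library.

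The list of the erythropoietin axis and late red cell maturation had 17 of 26 genes tested, 0 higher and 2 lower, with a median log2 fold change of 0.71. Tfrc, the transferrin receptor through which dividing cells and red cell precursors take up iron, fell to 3.34, 3.71 and 3.46 FPKM on BRAFi, against 14.8, 15.4 and 21.6 FPKM before treatment (-2.25 ± 0.21, adjusted p = 0.00156 by limma). Prdx2, a peroxidase abundant in red cells and present in many others, fell to 121, 177 and 121 FPKM on BRAFi, against 347, 246 and 245 FPKM before treatment (-1.0 ± 0.23, adjusted p = 0.0273), and that call was lost when any of 5 libraries was left out and after rescaling to the same total. Epo and Car1 were listed at 0 in every library.

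Bpgm, Car2 and Ube2l6 had on-BRAFi tumours 1 and 2 above every pre-treatment tumour and on-BRAFi tumour 3 below all of them, without passing the test. Bpgm, which makes the 2,3-bisphosphoglycerate that tunes oxygen release, had 77.5, 61.4 and 15.1 FPKM on BRAFi and 23.1, 18.1 and 22.0 FPKM before treatment (adjusted p = 0.280 by limma). Car2, a red cell carbonic anhydrase, had 5.70, 3.16 and 0.367 FPKM on BRAFi and 0.697, 0.921 and 0.678 FPKM before treatment (adjusted p = 0.381). Ube2l6, an abundant gene of the list, had 93.8, 81.5 and 24.4 FPKM on BRAFi and 29.6, 32.3 and 44.2 FPKM before treatment (adjusted p = 0.366). Other abundant genes of the list lacked this order. Bnip3l, which clears mitochondria from maturing red cells and is also made elsewhere, had 105, 105 and 68.2 FPKM on BRAFi and 127, 102 and 112 FPKM before treatment. Kitl, the ligand of the receptor Kit on red cell precursors and made by stromal cells, had 74.0, 59.1 and 51.8 FPKM on BRAFi and 30.3, 29.4 and 46.5 FPKM before treatment (adjusted p = 0.0583), with all on-BRAFi tumours above all pre-treatment tumours. Without on-BRAFi tumour 3, limma called 10 of the 53 genes of all 7 lists higher and 2 lower. The same fit called 13.3% of all tested genes, and 5.85% as higher. List genes newly called included Bpgm, Car2, Ube2l6, Isg20, Epb4.1 and Hp, all higher. Bpgm, Car2 and Ube2l6 were grouped here by their low values in that tumour, so their calls without it are no separate evidence. The same holds for Isg20, Epb4.1 and Hp, whose lowest on-BRAFi values were also in that tumour.

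**Figure D4:**
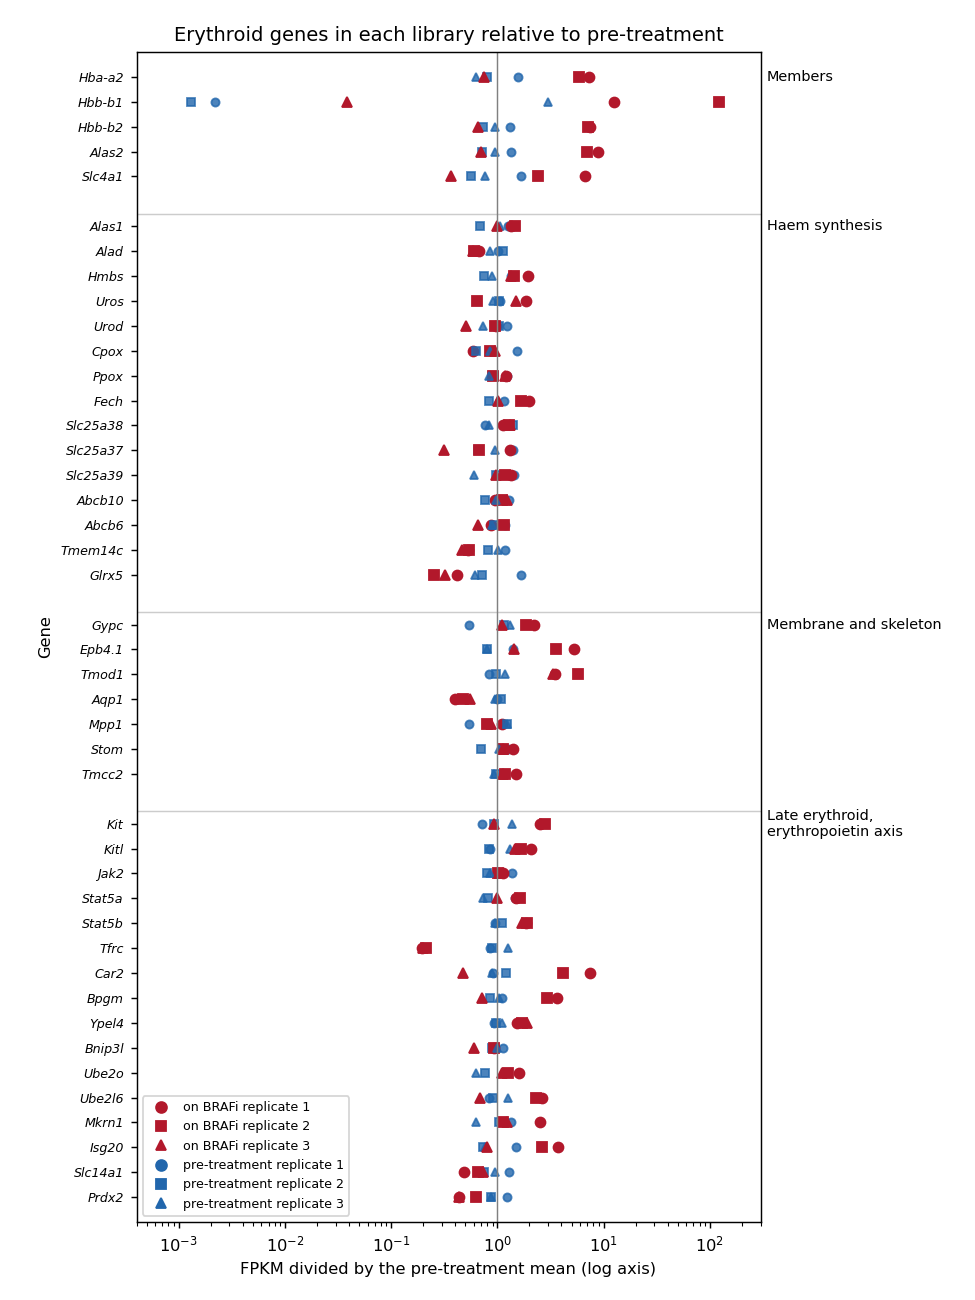
FPKM of each tested member and of tested genes of 3 red cell lists, divided by the gene's pre-treatment mean, on a log axis; red is on BRAFi, blue is pre-treatment, and circles, squares and triangles are tumours 1, 2 and 3. Bpgm, Car2, Ube2l6 and Isg20 have the red circle and square to the right and the red triangle near or left of the blue points, like the members, while Tfrc, Aqp1 and Tmem14c have all red points to the left.

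In haem breakdown and transport, 9 of 11 genes were tested and 1 was called, with a median log2 fold change of -0.053. Abcg2, an exporter of porphyrins and drugs, rose to 23.7, 30.6 and 16.3 FPKM on BRAFi, against 4.75, 9.88 and 8.48 FPKM before treatment (1.62 ± 0.35, adjusted p = 0.0210 by limma), but the call was lost without on-BRAFi tumour 1 or 2. Hmox1, the inducible enzyme that opens the haem ring, had 16.4, 16.3 and 10.1 FPKM on BRAFi and 16.9, 13.3 and 14.7 FPKM before treatment (adjusted p = 0.809). Hmox2, its constitutive counterpart, had an adjusted p of 0.842, and Lrp1, a receptor that takes up haem bound to haemopexin, one of 0.151. Hebp1, a haem-binding protein, and Blvrb, a biliverdin reductase, had adjusted p-values of 0.776 and 0.480 by limma.

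How common the members' order of libraries was in the whole table was counted after their values had been seen, so the counts are a description. For every count, both high on-BRAFi tumours also had to have 1 FPKM or more. Among 11651 tested genes other than short RNAs, 512 (4.39%) had on-BRAFi tumours 1 and 2 above every pre-treatment tumour and on-BRAFi tumour 3 not. All 5 tested members and 12 of the 53 other list genes were among them. The same pattern with on-BRAFi tumour 1 as the low one was found in 435 genes (3.73%), and with on-BRAFi tumour 2 in 493 genes (4.23%), with no member in either count. Where both high tumours had to exceed every pre-treatment tumour and the low on-BRAFi tumour at least 3-fold, 20 genes (0.172%) had tumour 3 as the low one. Among these 20 were Hba-a2, Hbb-b1, Hbb-b2 and Alas2, together with Car2. With tumour 1 or tumour 2 as the low one, 7 genes each remained, none of them a member or a list gene.

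The genes most like the members were sought by the root-mean-square difference between a gene's centred log2(FPKM + 0.1) values over the 6 libraries and the mean of the 5 tested members, among 10748 genes. The closest were Irf4 (0.54), Thy1 (0.72), Rab7l1 (0.79), Ifi205 (0.80), Irak3 (0.85), Ucp2 (0.87), Fam46c (0.87) and Dmkn (0.90), beside a median over all compared genes of 2.04. Unlike every tested member, Thy1 and Irak3 had all on-BRAFi tumours above all pre-treatment tumours. Irak3 was also called (adjusted p = 0.0429 by limma). With 0.165, 0.340 and 0.458 FPKM before treatment, Irak3 passed the limit on low values only through the on-BRAFi tumours. The members themselves lay at 0.65 for Alas2, 0.67 for Hbb-b2, 0.92 for Hba-a2, 1.15 for Slc4a1 and 3.32 for Hbb-b1, so the mean profile was drawn strongly by Hbb-b1. With Hbb-b1 left out, which was done after its values had been seen, the 8 closest genes included Mgst1 (0.17), Fam46c (0.29), Ucp2 (0.32), Ifi205 (0.36), Car2 (0.43), Olfr1373 (0.46) and Cd24a (0.46), against a median of 1.45. Fam46c, Ucp2 and Ifi205 were in both sets of 8. Mgst1, the closest of all, had 21.02, 14.1 and 2.42 FPKM on BRAFi and 4.496, 2.47 and 2.65 FPKM before treatment. All 6 libraries enter each value, so this likeness describes these tumours.

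On-BRAFi tumour 3 had the lowest total FPKM and leukocyte marker sum of all libraries and the most genes at 1 FPKM or more. Its total of 414834 FPKM was the smallest of the 6 libraries, which reached 921297 FPKM in pre-treatment tumour 1, and between 11074 and 11740 genes had at least 1 FPKM per library. The leukocyte markers summed to 39.6, 19.0 and 12.5 FPKM on BRAFi and 29.7, 27.7 and 29.1 FPKM before treatment, with 0 of 6 tested genes called by limma and 2 (C1qb and C1qc, lower on BRAFi) at an unadjusted p under 0.05. Of 20 leukocyte markers, Ncr1, S100a8 and S100a9 were among those listed at 0 throughout, and Lyz2 was the most abundant with 6.63 to 27.7 FPKM. Ptprc had 0.118, 1.10 and 0.809 FPKM on BRAFi and 0.609, 1.09 and 2.18 FPKM before treatment, so it was not lowest in on-BRAFi tumour 3. The platelet markers summed to 18.6, 11.1 and 9.31 FPKM on BRAFi and 6.66, 4.44 and 5.98 FPKM before treatment, with 1 of 5 tested genes called higher (Selp, which endothelium also makes). Among the tested platelet markers only Pf4 had a fitted change below 0 (-0.71 ± 1.98, adjusted p = 0.830 by limma). P2ry12, not tested, was listed at 0 in every on-BRAFi tumour and at 0.299 to 0.808 FPKM before treatment. Of 16 platelet markers, Gp6, Tubb1 and Clec1b were listed at 0 in every library. The endothelial markers summed to 126, 158 and 102 FPKM on BRAFi and 60.7, 47.7 and 57.1 FPKM before treatment, with 8 of 13 tested genes called higher and none lower. Over all tested genes, the same fit called 8.76% higher and 10.3% lower. The fibroblast markers, led by Col3a1, Col1a2 and Dcn, summed to 9664, 9920 and 9178 FPKM on BRAFi and 1237, 1288 and 1763 FPKM before treatment, with 8 of 12 higher. Those not called were Pdgfra, Fap, Pdpn and Thy1, with log2 fold changes of 0.22, 0.0084, -0.41 and 2.50. Their adjusted p-values were 0.494, 0.981, 0.172 and 0.0616 by limma. On-BRAFi tumour 3 had the smallest endothelial and fibroblast sums of its group, but both were above every pre-treatment tumour, unlike its globin sum in deposited FPKM. The pericyte markers summed to 108, 149 and 148 FPKM on BRAFi and 73.3, 78.4 and 67.8 FPKM before treatment, with 3 of 7 tested genes called higher and 1 lower (Cspg4). The melanocyte markers, of which Mlana, Tyrp1 and Dct were listed at 0, summed to 27.9, 25.5 and 27.5 FPKM on BRAFi and 8.23, 8.99 and 12.5 FPKM before treatment. Mitf made up most of the melanocyte sum and was called higher, while Tyr, the only other melanocyte marker tested, was not called (adjusted p = 0.440 by limma). Selp, Tek, Robo4, Mfap5, Pi16, Notch3 and Tagln were called higher but had pre-treatment means under 1 FPKM. These genes passed the limit on low values only through the on-BRAFi tumours. The part of these cell types in the values of the members was not tested.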

How the data were processed

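RNA of CD45-negative cells from 6 YUMM1.7 tumours was isolated by RNeasy micro kit (QIAGEN) and made into unstranded poly(A) TruSeq libraries, per the labels' protocols. The labels describe the reads both as single-end and as paired-end. The authors deposited 1 table of FPKM, in which each library has its own column. The submitters' processing notes name mm9, TopHat2, TopHat, Cuffnorm and Cuffdiff, with neither versions nor roles. The annotation is not given in the sources used here, and the depth of the libraries is unknown, so no counting intervals are given.

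Genes whose mean was 1 FPKM or more were tested as log2(FPKM + 0.1) with limma 3.58.1 in R 4.3.3 (lmFit, eBayes with trend, two-sided), with Benjamini-Hochberg adjustment over the 12075 genes. Fold changes on that scale understate changes of low genes. An exact permutation test of 3 against 3 cannot give a p below 0.1. The fit was tested on simulated data. The members, gene lists and named-gene rule were chosen with earlier results of these data known. The rule takes all members, every called list gene, the most abundant genes of each list and the 8 genes most like the members. Genes named beyond it (such as Bpgm, Car2, Klf1, Isg20 and Hmox1) were picked after their values were seen. Some genes that the rule or the lists name are not reported here. Alternatives were other pseudocounts (1 and 0.01), no filter, a mean FPKM of at least 5, 4 other scalings, limma without trend, array weights, a block by tumour number, and leaving out single libraries. Coding sequences came from GENCODE M21 and promoters from RefSeq, neither on the build of the deposited values, and no coordinates were converted.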

Additional observations from a re-analysis of the deposited data

How the results depend on the processing

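The absence of a call among the 5 tested members held under every alternative run with all 6 libraries. Leaving out 1 library gave 0 to 3 member calls, with log2 fold changes of 1.19 to 2.82 for Hba-a2, 1.14 to 2.89 for Hbb-b2 and 1.19 to 3.02 for Alas2, the upper ends without on-BRAFi tumour 3. Slc4a1 ranged from 0.13 without on-BRAFi tumour 1 to 1.94, and Hbb-b1 from 3.27 without on-BRAFi tumour 2 to 8.88. Hba-a1, at values under the pseudocount, turned to -0.24 under quantile normalization. Over the whole table, 2307 genes were called, 1058 higher and 1249 lower. With all libraries brought to 1 common total, the median log2 change of all genes was 0.54 in place of -0.0063, and there were 2042 genes higher and 520 lower. Rescaling without short RNAs gave 4546 calls, 3865 higher and 681 lower, and 23 genes of the 7 lists in place of 8, 22 of them higher. Array weights gave 13 list genes. Under both total rescalings Aqp1, Tmem14c, Glrx5 and Prdx2 were no longer called, nor were Aqp1 and Prdx2 under quantile normalization, while Tmod1, Cygb and Tfrc were called under every alternative that tested them. Glrx5 was also not called with a pseudocount of 1, with no filter or in limma without trend. Leaving out 1 library gave 1199 to 1675 genes, the lowest without on-BRAFi tumour 1, with 1523 without on-BRAFi tumour 2 and 1512 without pre-treatment tumour 2, and 4 to 12 list genes, the lowest without on-BRAFi tumour 1 and the highest without on-BRAFi tumour 3. Over all tested genes, same-numbered tumours did not deviate together (r = -0.03, 0.01 and -0.09). With 3 libraries per group, these values cannot show whether the numbers pair tumours. A replicate block by tumour number gave 1237 calls and none among the members, and Tmem14c and Prdx2 were no longer called. The cause of these shifts was not tested. Unknown depth leaves the counting error of low genes such as Slc4a1 without an estimate.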
